A study of Mus musculus with 12 samples.

Results

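The genes described here are 10 genes of eosinophils and of type 2 immunity, read in the colon of mice that lack LAO1, IL4i1 or both enzymes. They were taken by symbol from a list: the eosinophil genes Il5ra, Ccr3, Siglecf, Epx and Prg2, the cytokine genes Il4, Il5, Il13 and Il33, and the chemokine gene Ccl11. All 10 were found among the 19505 named genes of the array, each with 1 probe. No difference in any of the 10 genes between genotypes passed the test over all probes. The largest was in Il5ra, whose level in the 3 IL4i1 knockout arrays lay below that in all 9 other arrays. Those 3 arrays read 3.84 to 4.08, not clearly above background. Between the IL4i1 knockout and each other genotype, 11.1% to 12.7% of all probes did not overlap. The share of probes that lay lowest against all 3 was not counted.

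Eosinophils are granulocytes that leave the bone marrow and settle in the intestine in health, where they stay in the tissue beneath the epithelium. IL-5, sensed through its receptor, drives their growth and survival, and eotaxin-1 (CCL11), sensed through CCR3, draws them into tissue. IL-4, IL-5 and IL-13 come mainly from T helper 2 cells, group 2 innate lymphoid cells, mast cells and basophils, and IL-33, released by damaged or stimulated epithelial and stromal cells, is one of the signals that makes such cells secrete them. IL4i1 and LAO1 are secreted L-amino acid oxidases, enzymes that break down amino acids and release hydrogen peroxide; IL4i1 was found as a gene that IL-4 induces in B cells.

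Whole colon RNA of healthy male mice aged 12 to 16 weeks was hybridised to Affymetrix arrays, 1 array per sample and 3 per genotype: wild type, LAO1 knockout, IL4i1 knockout, and double knockout, in which both genes are deleted. The labels name no treatment. The labels name no strain, deletion construct or Cre driver, so the knockouts are taken only as the labels name them, and they speak of 4 mice chosen per genotype without tying an array to a mouse; p-values therefore measure the spread between these arrays, which may be in part technical. In whole tissue, fewer cells of a type and less RNA per cell cannot be told apart.

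The deposited values are log2 signals from 1.72 to 19.93, with array medians between 5.42 and 5.49, and arrays correlated at 0.964 to 0.99 over all 22206 probes. Colon epithelium markers averaged 14.66 to 16.50 in every array, and both ends of that range were IL4i1 knockout arrays. IL4i1 knockout replicate 2 lay farthest out on the first principal component, which held 20.2% of the variance. It also had the lowest of the array weights estimated with limma, 0.507. No probe carries the name Il4i1, and the Lao1 probe read 2.64 to 3.56 in all arrays, so the deletions could not be checked. Double knockout replicate 2 stood apart through pancreatic acinar genes, whose mean was 16.10 against 3.93 to 4.55 in the other 11 arrays. Double knockout replicate 1 had the highest mean of the interferon response and type 1 cytokine genes, 10.07, with 7.21 and 8.21 in the other double knockout arrays and 4.99 to 6.87 elsewhere.

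Since the table has no detection call, the 1091 probes of olfactory receptor genes, most of which the colon is not known to use, served as a rough gauge of background. Their median was 3.38 and their 95th percentile 4.68. Ccl11 averaged 9.66 over the 12 arrays, above 100% of these probes. Il33 averaged 5.05, Il5ra 4.93, Ccr3 4.76 and Siglecf 4.68, above 97.3%, 96.6%, 95.5% and 95% of them. Those 4 probes thus lay at the upper edge of the background gauge. Il5, Prg2 and Il13, with means of 4.26, 3.84 and 3.63, lay inside it, and Il4 at 2.78 and Epx at 2.60 lay below its median. For these 5 genes the arrays give little beyond background, and a difference in them was barely measurable. Other eosinophil genes were as dim: Prg3, a granule protein gene, read 2.92 to 3.62, and the eosinophil ribonuclease genes Ear6 and Ear10 read 3.24 to 4.47 and 3.39 to 4.87, while the cytokine receptor gene Csf2rb and the receptor gene Cd300lf, both shared with other myeloid cells, read 5.63 to 7.69 and 7.64 to 8.67. The label eosinophil thus rests on surface receptor genes here, and the granule genes that define the cell were at background.

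**Figure D1:**
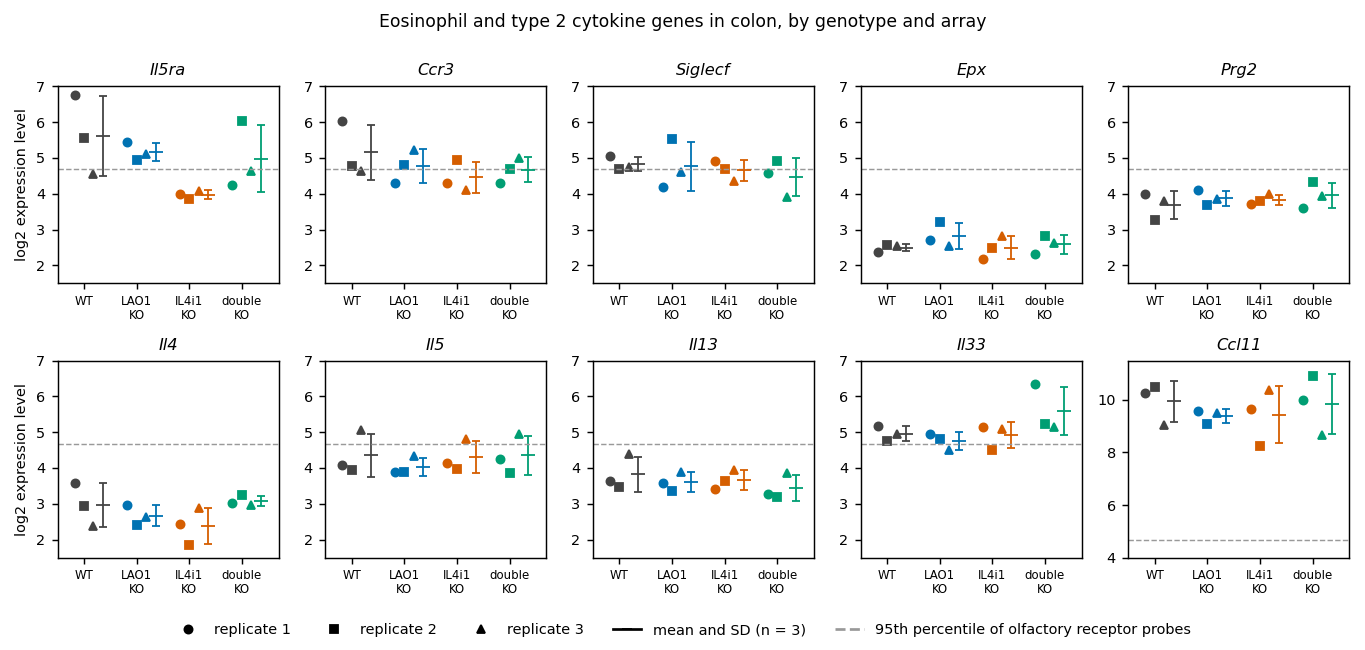
Log2 signal of the 10 genes (vertical axes, 1 panel per gene) in 3 arrays of each of 4 genotypes; points are arrays, bars the mean and SD, and the dashed line is the 95th percentile of the olfactory receptor probes, 4.68. Il5ra lies at 3.84 to 4.08 in the IL4i1 knockout and at 4.25 or above in every other array, and Ccl11 is the only one of the 10 far above the dashed line.

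Il5ra encodes the chain of the IL-5 receptor that binds the cytokine; eosinophils carry it, as do some B cells. Its wild type arrays read 6.75, 5.55 and 4.54 (replicates 1 to 3), a mean of 5.61 ± 1.11 (SD, n = 3). LAO1 knockout arrays read 5.43, 4.95 and 5.10, IL4i1 knockout arrays 4.0, 3.84 and 4.08, and double knockout arrays 4.25, 6.03 and 4.64. The IL4i1 knockout arrays were the lowest 3 of the 12 and varied little among themselves (3.97 ± 0.12), whereas wild type and double knockout arrays each spanned more than a log2 unit. The share of all probes with the IL4i1 knockout arrays as the lowest 3 was not counted. The order of the group means was wild type, LAO1 knockout (5.16 ± 0.25), double knockout (4.97 ± 0.94) and IL4i1 knockout, and neighbours among the first 3 overlapped.

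The Il5ra difference of the IL4i1 knockout from wild type was −1.64 on the log2 scale (SE 0.49, limma unadjusted p = 0.00544, adjusted p = 0.52), with 3 of 3 arrays below every wild type array. All 3 IL4i1 knockout arrays, replicates 1 and 3 of the double knockout and the third of wild type lay below the 95th percentile of the background gauge, 4.68, so the size of the difference and the small spread of the IL4i1 knockout describe a probe not clearly above background there. Without wild type replicate 1, the highest array, it was −1.07. The LAO1 knockout stood above the IL4i1 knockout by 1.19 (SE 0.49, adjusted p = 0.843) and the double knockout above it by 1.0 (SE 0.49, adjusted p = 0.54), again with no overlap of arrays. Without double knockout replicate 2, the array with the acinar genes, the latter difference was 0.47. Thus Il5ra was lower in the IL4i1 knockout arrays than in each of the other genotypes, but all 3 comparisons share the same IL4i1 knockout arrays and none passed the threshold of 0.05. The double knockout and LAO1 knockout differed from wild type by −0.64 and −0.45 (adjusted p = 0.826 and 1), with overlapping arrays.

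Among the marker lists of other cells, those of macrophages and fibroblasts had lower means in the IL4i1 knockout than in wild type for all 8 of their 8 genes each (medians −0.95 and −0.58), smooth muscle had higher means for 6 of 6 (median 0.40), and T cells, neutrophils, tuft cells and basophils were mixed (medians −0.05, 0.24, 0.07 and −0.04). The mean log2 signal of 8 macrophage markers was 5.51 to 6.16 in the IL4i1 knockout, 6.30 to 7.33 in wild type, 6.04 to 6.46 in the LAO1 knockout and 6.19 to 7.11 in the double knockout. It was highest in wild type replicate 1 and double knockout replicate 2, the arrays that also had the highest Il5ra. None of these 8 passed the test against wild type, and 5 were lower at unadjusted p under 0.05, where 7.58% of all probes were nominal. The mean of 11 mast cell markers was 4.16 to 4.29 in the IL4i1 knockout, against 5.30 to 6.00, 4.73 to 4.88 and 5.70 to 6.17 in wild type, LAO1 knockout and double knockout. That gap came mostly from 3 protease genes, Mcpt1, Mcpt2 and Cpa3 (−2.70, adjusted p = 0.0709): of the 11 genes 8 were lower and 3 higher, the median was −0.26 beside 0.03 over all probes, and Cma1, Tpsab1 and Fcer1a differed by 0.31, 0.12 and 0.14. Mcpt1 and Mcpt2, proteases of mucosal mast cells, fell in the IL4i1 knockout against wild type, by 7.82 (adjusted p = 6.75e-05) and 3.74 (adjusted p = 0.0317); the Mcpt2 call ended without wild type replicate 3 or any 1 of the IL4i1 knockout arrays, where the adjusted p reached 0.181. The defining markers Mcpt1 and Mcpt2 read 2.88 to 3.95 and 3.11 to 3.50 in the IL4i1 knockout, within the background gauge, so the sizes of their differences depend on the background signal. The threshold was passed by 2 of the 11, beside 0.0135% of all probes. The part of these cells in the Il5ra difference was not tested.

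Ccr3 encodes the eotaxin receptor and Siglecf a sialic acid binding receptor of mouse eosinophils, also present on some macrophages and epithelial cells. Ccr3 read 6.04, 4.77 and 4.64 in wild type arrays, 4.29, 4.81 and 5.23 in those of LAO1 knockouts, 4.30, 4.95 and 4.11 in those of IL4i1 knockouts, and 4.31, 4.70 and 5.01 in double knockout arrays. The groups overlapped, and wild type replicate 1 alone lay above all other arrays, as it did for Il5ra. The IL4i1 knockout differed from wild type by −0.70 (SE 0.37, adjusted p = 0.675) and the double knockout by −0.48; without wild type replicate 1 these were −0.25 and −0.03. Siglecf read 5.06, 4.69 and 4.75 in wild type arrays, 4.19, 5.52 and 4.60 in those of LAO1 knockouts, 4.92, 4.68 and 4.35 in those of IL4i1 knockouts, and 4.59, 4.92 and 3.90 in double knockout arrays. All 4 genotypes overlapped in Siglecf, with the lowest and highest arrays in the double knockout and LAO1 knockout. Its double knockout mean lay between 1.08 below and 0.36 above the wild type mean (95% interval of the log2 difference), so a change of up to about a log2 unit downwards could not be told from none.

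Epx and Prg2 encode eosinophil peroxidase and major basic protein, the main granule proteins of the cell. Over the 12 arrays Epx read 2.18 to 3.22 and Prg2 3.26 to 4.32, and all groups overlapped. The group means were 2.50 ± 0.10, 2.82 ± 0.35, 2.50 ± 0.33 and 2.59 ± 0.26 for Epx, and 3.68 ± 0.38, 3.87 ± 0.21, 3.84 ± 0.14 and 3.95 ± 0.36 for Prg2, for wild type, LAO1 knockout, IL4i1 knockout and double knockout. Neither followed Il5ra: across the 12 arrays Epx correlated with it at r = 0.16 and Prg2 at r = 0.28, against 0.62 for Ccr3 (Spearman's rho 0.38). Both are background signals here, so these correlations describe probes rather than cells.

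The promoters of Il5ra and of the neighbouring cytokine genes Il13 and Il5 are shown for 2 reasons. Il5ra had the largest difference among the 10, and the Il5 and Il13 probes, mostly at background, moved together from array to array. Each is the 250 bases before the start of the gene, 5′ to 3′ along the gene, from RefSeq on GRCm38.p6, where 8 of the 10 genes had an entry. Il5ra lies at chr6:106749038-106749287 on the minus strand, Il13 at chr11:53634703-53634952 on the minus strand and Il5 at chr11:53720544-53720793 on the plus strand. Capitals mark the letters GATA, or TATC where GATA stands on the other strand, the core of the sites of GATA factors: GATA3 in type 2 lymphocytes and GATA1 in eosinophils.
Il5ra: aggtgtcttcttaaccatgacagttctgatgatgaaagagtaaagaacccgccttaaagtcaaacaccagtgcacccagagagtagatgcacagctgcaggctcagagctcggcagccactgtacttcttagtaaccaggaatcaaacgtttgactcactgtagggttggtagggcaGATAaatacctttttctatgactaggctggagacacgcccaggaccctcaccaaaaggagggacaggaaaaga
Il13: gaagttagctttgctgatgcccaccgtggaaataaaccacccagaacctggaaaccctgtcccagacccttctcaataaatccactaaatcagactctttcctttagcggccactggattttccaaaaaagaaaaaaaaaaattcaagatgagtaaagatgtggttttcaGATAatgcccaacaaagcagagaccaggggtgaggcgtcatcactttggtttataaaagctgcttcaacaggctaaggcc
Il5: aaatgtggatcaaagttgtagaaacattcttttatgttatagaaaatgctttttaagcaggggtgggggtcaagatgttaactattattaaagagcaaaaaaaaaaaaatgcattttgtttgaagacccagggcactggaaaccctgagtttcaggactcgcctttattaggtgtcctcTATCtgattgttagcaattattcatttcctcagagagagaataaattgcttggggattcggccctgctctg
The match starts 73 bases before the start in Il5ra, 80 in Il13 and 71 in Il5, and each is preceded by A on its own strand, forming AGATA. Both strands were searched, and the AGATA matches contain the GATA matches. GATA is in 53.6% of the 32851 promoters of that length and AGATA in 26.6%, so a match is common and describes the letters only.

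IL-5 is the growth factor of eosinophils, IL-13 acts on epithelium and goblet cells, and IL-4 directs T and B cells to type 2 responses. Their genes lie together on chromosome 11 in the order Il4, Il13, Rad50 and Il5. Il5 read 4.07, 3.94 and 5.05 in wild type arrays, 3.90, 3.89 and 4.33 in those of LAO1 knockouts, 4.14, 3.98 and 4.82 in those of IL4i1 knockouts, and 4.24, 3.87 and 4.94 in double knockout arrays. Il13 read 3.63, 3.46 and 4.38, then 3.58, 3.35 and 3.89, then 3.41, 3.63 and 3.95, and 3.28, 3.18 and 3.85 in the same order of groups. In both genes the 4 replicate 3 arrays, 1 of each genotype, lay above the other 8 arrays, and the genotypes overlapped. Across the 12 arrays their correlation was r = 0.82 (rho = 0.75), and r = 0.94 for deviations from the group means. Every Il13 value lay below 4.68, the 95th percentile of the background gauge. Il5 passed it only in replicate 3 of wild type, the IL4i1 knockout and the double knockout. The correlation thus describes probes rather than cells. Of all probes, 507 (2.28%) were likewise highest in replicate 3 of every genotype, and the labels do not say what a replicate number marks. No Il5 or Il13 difference was nominally significant: the double knockout against wild type gave 0.00 for Il5 (95% interval −0.75 to 0.74) and −0.39 for Il13 (−0.99 to 0.21).

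Il4 lay in the lower part of the background gauge. It read 3.59, 2.95 and 2.37 in wild type arrays, 2.97, 2.40 and 2.63 in those of LAO1 knockouts, 2.44, 1.86 and 2.87 in those of IL4i1 knockouts, and 3.02, 3.24 and 2.98 in double knockout arrays. The 3 double knockout arrays lay above every array of both single knockouts and inside the wild type range. The log2 differences were 0.69 from the IL4i1 knockout (SE 0.31, limma unadjusted p = 0.0465, adjusted p = 0.5) and 0.41 from the LAO1 knockout (adjusted p = 0.856), and the interaction (wild type plus double knockout, from which both single knockouts are subtracted) was 0.99 (SE 0.44, adjusted p = 0.688). Without IL4i1 knockout replicate 2, which had the lowest value of all, the first was 0.42. Since every Il4 value lay below the 95th percentile of the background gauge, these are differences between dim signals.

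**Figure D2:**
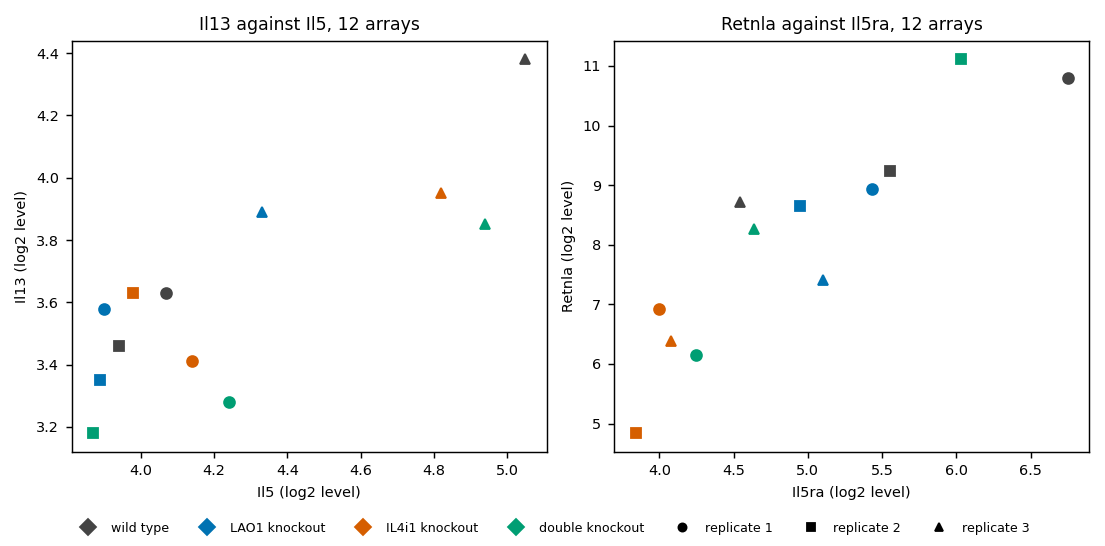
Log2 signals of paired genes over the 12 arrays, each point an array coloured by genotype: Il13 against Il5 on one panel and Retnla against Il5ra on the other. The replicate 3 arrays lie at the upper right for Il5 and Il13 (r = 0.82), and the IL4i1 knockout arrays at the lower left for Il5ra and Retnla (r = 0.90). Double knockout replicate 1 lies near them in that corner. Retnla is among the 3 genes picked for the highest r with Il5ra, so its r is no separate support.

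IL-33 is the alarmin of the set. Il33 read 5.16, 4.75 and 4.96 in wild type arrays, 4.96, 4.82 and 4.49 in those of LAO1 knockouts, 5.14, 4.49 and 5.10 in those of IL4i1 knockouts, and 6.35, 5.24 and 5.15 in double knockout arrays. The double knockout arrays lay above all arrays of both single knockouts, and replicate 1 stood more than a log2 unit above the other arrays of its genotype. The differences were 0.82 from the LAO1 knockout (SE 0.31, limma unadjusted p = 0.0183, adjusted p = 0.597), 0.67 from the IL4i1 knockout (SE 0.31, adjusted p = 0.5) and 0.62 from wild type (adjusted p = 0.696). Without double knockout replicate 1 they were 0.44, 0.28 and 0.24. That array also had the highest mean of the interferon response and type 1 cytokine genes, 10.07. Of these, Gbp2 and Irf1 rose when the double knockout was set against the IL4i1 knockout by 4.40 and 2.79 (adjusted p = 0.00513 and 0.00533). Against the LAO1 knockout Gbp2 rose by 4.46 (adjusted p = 0.00867), a call kept in 10 of 13 alternative settings. These were 2 and 1 of 7 genes, beside 0.477% and 0.14% of all probes. The part of these genes in the Il33 difference was not tested.

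Ccl11, the eotaxin-1 gene, is made mainly by fibroblasts and other stromal cells, and was the one gene of the set well above background. It read 10.27, 10.51 and 9.06 in wild type arrays, 9.58, 9.10 and 9.50 in those of LAO1 knockouts, 9.66, 8.26 and 10.39 in those of IL4i1 knockouts, and 10.01, 10.92 and 8.65 in double knockout arrays. The groups overlapped, with means of 9.95 ± 0.78, 9.39 ± 0.26, 9.44 ± 1.08 and 9.86 ± 1.14, and the differences between these means were smaller than the SD within wild type, IL4i1 knockout or double knockout. The double knockout differed from wild type by −0.09 (SE 0.59, 95% interval −1.35 to 1.18, adjusted p = 0.988). The mean of 8 fibroblast markers was lowest, 8.58, in IL4i1 knockout replicate 2, then 8.73 in double knockout replicate 3, and highest, 10.45, in double knockout replicate 2. Those arrays held the lowest 2 and the highest Ccl11 values. Double knockout replicate 2 is also the array with the acinar genes. The part of fibroblasts in the Ccl11 levels was not tested.

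Over all 7 comparisons, 0 of 70 tests of the 10 genes passed an adjusted p under 0.05 in limma, and 6 had an unadjusted p under 0.05. Against wild type, 0 of 10 passed in the double knockout (0.0225% of all probes did), 0 in LAO1 knockout arrays (0.0045%) and 0 in IL4i1 knockout arrays (0.0135%), and 0, 0 and 1 had an unadjusted p under 0.05 (7.44%, 3.02% and 7.58% of all probes). In the double knockout, 0 of 10 passed against the LAO1 knockout (0.14%) and 0 against the IL4i1 knockout (0.477%), and 1 and 2 were nominal, at an unadjusted p under 0.05 (7.15% and 9.83%). Between the single knockouts 0 passed (0.0045%) and 1 was nominal (5.84%), and in the interaction 0 passed (0.23%) and 1 was nominal (7.12%). The largest nominal count, 2 of 10, rests on Il4 and Il33, and counts this small say little beside the shares of all probes.

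Counted by arrays that did not overlap in either direction, 0 of the 10 genes stood apart between the double knockout and wild type (11.6% of all probes did) and 0 between the LAO1 knockout and wild type (8.53%). In the IL4i1 knockout 1 gene, Il5ra, lay apart from wild type (11.1%), and Il5ra alone lay apart between the single knockouts (11.3%). Il4 and Il33, 2 of the 10, lay higher in double than in LAO1 knockout arrays (12.7%). Il5ra, Il4 and Il33, 3 of the 10, lay higher in double than in IL4i1 knockout arrays (12.7%). The median difference of the 10 genes was −0.05 for the double knockout, −0.26 for the LAO1 knockout and −0.17 for the IL4i1 knockout against wild type, beside 0.00, 0.01 and 0.03 over all probes. In the double knockout it was 0.17 against the IL4i1 knockout, with 8 positive and 2 negative, beside −0.02. These medians include 5 genes at background.

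**Figure D3:**
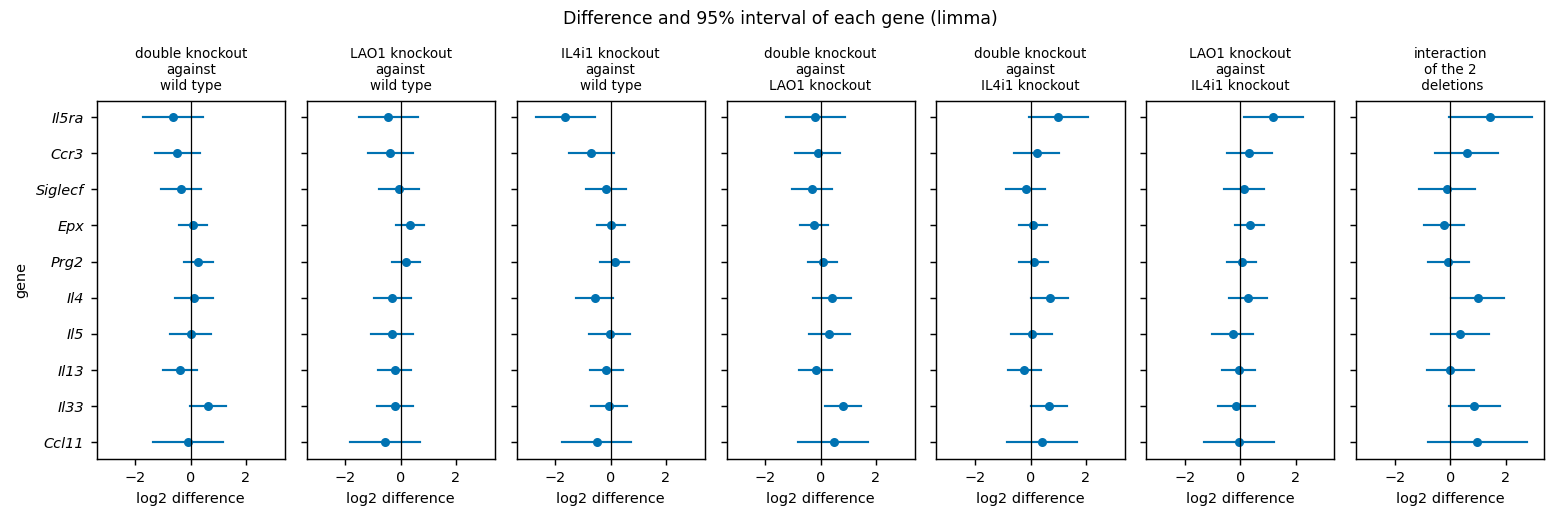
Log2 difference of each gene (points) with its 95% interval (bars) in the 7 comparisons, 1 panel per comparison; the vertical line is at 0. None passed the adjusted threshold; Il5ra in the IL4i1 knockout against wild type, −1.64, is the farthest from 0 among the 6 comparisons of genotype pairs.

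Genes around these 10 were read from lists of the pathway. With the 10 included, 145 of 164 genes were matched by symbol. Downstream of IL-4 and IL-13, the response genes include Retnla and Retnlb, secreted resistin-like proteins of macrophages and goblet cells, the macrophage mannose receptor Mrc1, and the signalling inhibitors Socs1 and Cish. In the IL4i1 knockout against wild type, 0 of 15 response genes passed (0.0135% of all probes did). At an unadjusted p under 0.05, 5 were lower and 0 higher (7.58% of all probes were nominal). By sign alone, 11 were lower and 4 higher, and the median was −0.16, beside 0.03 over all probes. The 4 higher ones were Fcer2a, Arg1, Chil3 and Postn, by 0.33, 0.31, 0.27 and 0.02, so the list did not move as a whole. Retnla read 10.79, 9.24 and 8.72 in wild type arrays, 8.94, 8.65 and 7.41 in those of LAO1 knockouts, 6.92, 4.84 and 6.39 in those of IL4i1 knockouts, and 6.15, 11.11 and 8.26 in double knockout arrays. Its IL4i1 knockout arrays lay below all wild type and LAO1 knockout arrays, with a difference from wild type of −3.53 (SE 0.98, limma adjusted p = 0.52), and the double knockout arrays overlapped those of every other genotype. Retnlb differed by −1.73 (SE 0.49, adjusted p = 0.52), of which IL4i1 knockout replicate 1, at 15.80, gave much: without it the difference was −0.95. Cish, Mrc1 and Socs1 differed by −1.17, −1.11 and −0.74 (adjusted p = 0.618, 0.642 and 0.589). Of these 5 genes only Mrc1 overlapped with wild type, and Mrc1 is also among the macrophage markers above. Of all probes, 11.1% did not overlap in this comparison. The 5 were named for their unadjusted p in the same comparison, so their lack of overlap adds no separate support.

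Among receptors and signalling genes, Il4ra, the chain shared by the IL-4 and IL-13 receptors, read 9.74, 10.18 and 9.56 in wild type arrays, 9.74, 9.49 and 9.60 in those of LAO1 knockouts, 9.48, 9.12 and 9.16 in those of IL4i1 knockouts, and 11.11, 10.27 and 9.70 in double knockout arrays. The IL4i1 knockout arrays were the lowest 3 and the double knockout held the highest 2, a difference of 1.11 (SE 0.30, adjusted p = 0.178) that did not pass. The share of all probes in such an order was not counted. Socs1, which interferons also induce, rose when the double knockout was set against the IL4i1 knockout by 1.70 (SE 0.28, adjusted p = 0.0158), from 3.76, 4.68 and 4.43 to 6.42, 5.90 and 5.64. It was 1 of 8 receptor and signalling genes and 1 of 15 response genes to pass there, beside 0.477% of all probes. Its IL4i1 knockout arrays lay at or below 4.68, the 95th percentile of the background gauge. The size of the rise thus depends on the background signal. The Socs1 call ended with only those 6 arrays in the fit (adjusted p = 0.144), and without IL4i1 knockout replicate 1 (adjusted p = 0.0518) or double knockout replicate 1 (adjusted p = 0.0872), the array with the highest interferon genes. Il13ra2, the decoy receptor of IL-13, was higher than in wild type in 3 of 3 IL4i1 knockout and 3 of 3 double knockout arrays, by 0.81 and 0.80 (adjusted p = 0.533 and 0.515). In these comparisons 11.1% and 11.6% of all probes did not overlap. The mean of Il13ra2 over the 12 arrays was 4.59, inside the background gauge.

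Of 7 other eosinophil attractants and growth factors, Ccl8 alone passed a test. Ccl8, a chemokine of the monocyte attracting family, read 8.42, 6.83 and 6.25 in wild type arrays, 6.46, 5.61 and 5.57 in those of LAO1 knockouts, 5.48, 4.34 and 5.07 in those of IL4i1 knockouts, and 7.11, 9.16 and 8.78 in double knockout arrays. It rose when the double knockout was set against the IL4i1 knockout by 3.39 (SE 0.58, adjusted p = 0.018), with no overlap, and its interaction was 4.67 (SE 0.81, adjusted p = 0.0337), a call kept in 8 of 18 alternative settings, with adjusted p from 0.0109 to 0.13. The call against the IL4i1 knockout ended with only those 6 arrays in the fit (adjusted p = 0.0777) and without IL4i1 knockout replicate 2 or 3 or double knockout replicate 3 (adjusted p = 0.0941, 0.0671 and 0.0843). Against wild type the IL4i1 knockout was lower by 2.20 without passing (adjusted p = 0.52). The eotaxin-2 gene Ccl24 differed by 0.58 between the double and the IL4i1 knockout (adjusted p = 0.435), at 3.67 to 4.88, within or at the edge of background. In the same comparison mast cell markers moved too: Mcpt1, Mcpt2 and Cpa3 rose by 9.35, 4.63 and 2.72 (adjusted p = 1.47e-05, 0.000882 and 0.0115), 3 of 11 past the threshold beside 0.477% of all probes; all 3 lay within the background gauge in the IL4i1 knockout, so these sizes depend on the background signal. Against the LAO1 knockout, Mcpt1 and Mcpt2 rose by 5.29 and 3.46 (adjusted p = 0.0041 and 0.0111), of which the Mcpt2 call ended without LAO1 knockout replicate 1 or 2 or double knockout replicate 3 (adjusted p = 0.0619, 0.0766 and 0.0716). The Cpa3 call ended with only the compared arrays (adjusted p = 0.0655) and reached 0.05 without IL4i1 knockout replicate 2. Their part in the Ccl8 difference was not tested.

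**Figure D4:**
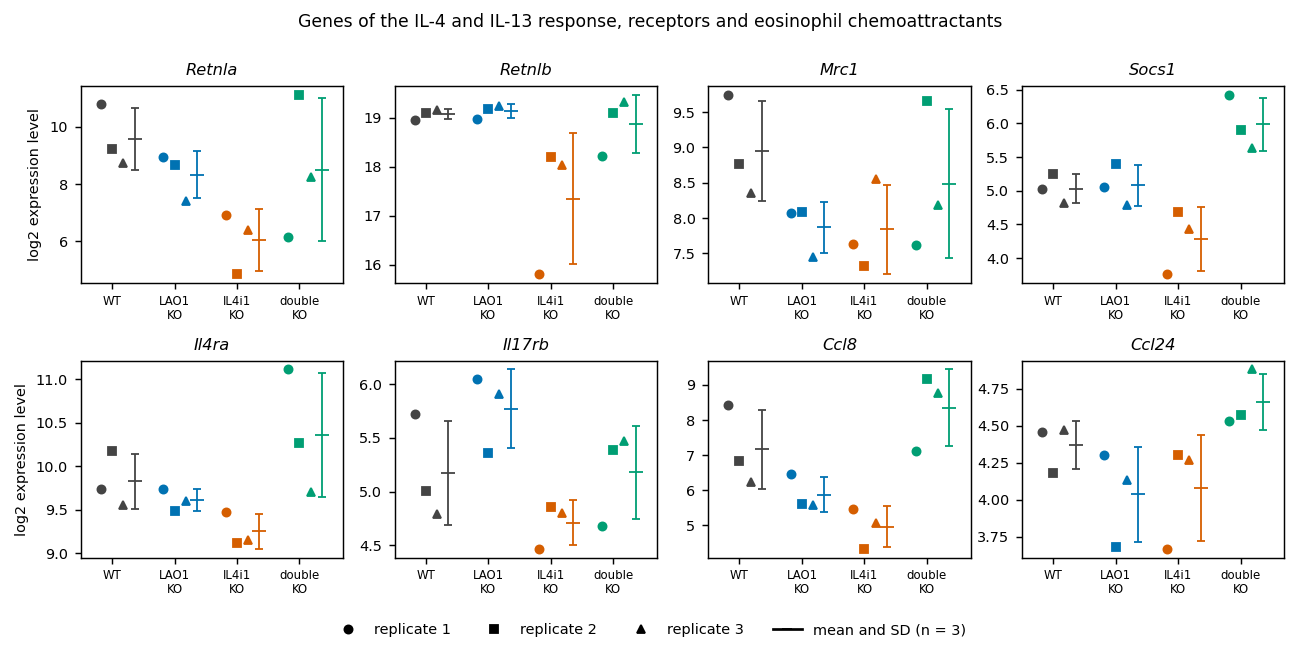
Log2 signal of 8 genes of the pathway lists (Retnla, Retnlb, Mrc1, Socs1, Il4ra, Il17rb, Ccl8 and Ccl24; 1 panel each) in 3 arrays of each genotype, with the mean and SD. The IL4i1 knockout arrays are low for Retnla (4.84 to 6.92) and Ccl8 (4.34 to 5.48), and the double knockout arrays are high for Ccl8 (7.11 to 9.16).

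No gene passed in any of the 7 comparisons among 9 other eosinophil genes, 6 alarmin and alarmin receptor genes or 8 type 2 lymphocyte genes. The eosinophil genes had 2 of 9 nominally higher when the double knockout was set against the IL4i1 knockout, where 9.83% of all probes were nominal: Csf2rb, the signalling chain of the IL-5 receptor, by 1.04 (adjusted p = 0.263) and Cd300lf by 0.73 (adjusted p = 0.153). Both are shared with other myeloid cells. Macrophage markers were higher there in 8 of 8 (median 0.58, beside −0.02 over all probes), 2 of them nominally. The part of macrophages in these 2 differences was not tested. Csf2rb was lower in the IL4i1 knockout than in wild type by 0.90 without passing (adjusted p = 0.587). For the alarmins, Tslp, a cytokine of epithelium, read 3.75 to 4.84 and Il25, a product of tuft cells, 3.0 to 3.95 over the 12 arrays, both around background. Among lymphocyte genes Il17rb, a receptor chain for IL-25, was higher in the LAO1 knockout than in the IL4i1 knockout by 1.06 (SE 0.29, adjusted p = 0.704), with 6.05, 5.36 and 5.91 against 4.47, 4.86 and 4.80.

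For the 5 genes above the 40th percentile of all probes, the named genes with the most similar pattern were looked up over the 12 arrays, as a description in which all values share arrays. Il5ra was most like Fam83f (r = 0.92, rho = 0.84, and r = 0.77 without the 2 arrays farthest from its median), Nectin1 (r = 0.90) and Retnla (r = 0.90, rho = 0.90, and r = 0.83 without those arrays). These 3 were picked as the highest among the 19505 named genes, so a high r follows from the search. Retnla is on the list of IL-4 and IL-13 response genes, and Fam83f and Nectin1 are on none of the lists. A link of Il5ra to that response was not tested. Il33 was most like Sting1 (r = 0.96, rho = 0.92), Rbbp7 (r = 0.93) and Cxcl10, an interferon-induced chemokine gene (r = 0.92, rho = 0.67, and r = 0.63 without the 2 farthest arrays). Ccl11 was most like Gpm6b, Prr14 and Mief1, each at r = 0.91. Ccr3 was most like Hint2 (r = 0.88), Tbc1d10a (0.86) and Ccdc54 (0.85), with rho of 0.86, 0.67 and 0.70. Without the 2 arrays farthest from the Ccr3 median, r was 0.75, 0.54 and 0.69. Siglecf was most like Mpp5 and Tsc22d1 (each r = 0.90) and Mgll (r = 0.89).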

How the data were processed

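Per the labels' protocols, total RNA of whole colon was extracted with ISOGEN II and biotin-labelled cRNA was hybridised to Affymetrix arrays. The deposited values are log2 signals per probe set, made by the authors with Transcriptome Analysis Console, per the submitters' processing notes; the version, summarisation, normalization and build are not given in the sources used here. Probes were named through the platform annotation: 19572 of 22206 have 1 symbol and 2634 none.

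limma 3.58.1 (R 4.3.3) fitted all probes through lmFit and eBayes, with a mean for each of 4 genotypes over 12 arrays, 8 residual degrees of freedom, two-sided, with Benjamini-Hochberg adjustment over all probes of each of 7 comparisons and a threshold of 0.05. The scripts were tested on simulated data. The number of arrays limits the precision; 3 against 3 arrays allow no exact permutation p under 0.1. Of a gene with several probes, the one with the highest mean was used. The text names the 10 genes and every other list gene past the threshold. It also names some genes with a small unadjusted p, up to 5 in a list and comparison. Not every nominal gene of these lists was named. Cma1, Tpsab1, Fcer1a, Fcer2a, Arg1, Chil3 and Postn were named because they differed in the other direction. Background and marker genes given as levels (Prg3, Ear6, Ear10, Cd300lf, Tslp and Il25) were chosen after their values were seen. The members and lists were chosen with earlier results of these data known. Ear1, Ear2, Ear7, Gata3 and Il1rl1, among others of the lists, were not analysed here.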

Additional observations from a re-analysis of the deposited data

Results flagged for a closer look

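The interaction of the 2 deletions is wild type plus double knockout, from which both single knockouts are subtracted. It passed the threshold (limma, adjusted p under 0.05) for 6 of the 145 matched list genes, beside 0.23% of all probes. The 145 include the 10 eosinophil and type 2 cytokine genes, of which none passed. Of the 10, 1, Il4, had an unadjusted p under 0.05, beside 7.12% of all probes. Ccl8 gave 4.67 on the log2 scale (adjusted p = 0.0337). The mast cell protease genes Mcpt1, Mcpt2 and Cpa3 gave 13.12, 7.20 and 4.57 (adjusted p = 1.62e-05, 0.000953 and 0.00368): each had means lower in both single knockouts than in wild type, and near or above wild type in the double knockout. All 3 lay within the background gauge in the IL4i1 knockout, so these sizes depend on the background signal. The interferon response genes Gbp2 and Irf1 gave 5.79 and 3.12 (adjusted p = 0.0106 and 0.0375), and Irf1 passed in 6 of 18 alternative settings. Ccl8 passed in 8 of 18, with adjusted p from 0.0109 to 0.13; its call ended without wild type replicate 1 or 2, without replicate 2 or 3 of the LAO1, IL4i1 or double knockout, with the replicate block and with a trended, robust fit. The Irf1 call ended in 12 settings, with adjusted p up to 0.138.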

How the results depend on the processing

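No processing choice brought any of the 10 genes past the threshold in any of the 7 comparisons: over 925 values from 12 settings that leave out an array and 7 others, 0 passed and the smallest adjusted p was 0.206. Of these values, 834 kept the sign of the reported difference; the other 91 belonged to differences smaller than their own standard error. With the replicate block, 0 of the 10 genes passed in each comparison. A pairing by number was not established, since the labels state none and the correlations were mixed: of 18 pairs of same-numbered arrays, 7 had deviations correlated above 0.1 (r from −0.14 to 0.22), and 5 of 12 arrays correlated best with an array of their own number. Among list genes, the Mcpt2 difference of the IL4i1 knockout from wild type had an adjusted p of 0.0748 with the replicate block and 0.162 with only the compared arrays. A filter on dim probes left out Epx, Prg2, Il4, Il5 and Il13, so these have no value under it, and since every member has 1 probe the alternative of another probe could not be run. Leaving out an array moved the Il5ra difference of the IL4i1 knockout from wild type between −2.18 and −1.07. Counts over all probes moved more: 106 when the double knockout was set against the IL4i1 knockout became 33 with only the compared arrays and 174 without double knockout replicate 2, 31 against the LAO1 knockout became 11 without LAO1 knockout replicate 3 and 68 without double knockout replicate 2, 5 against wild type became 1 without wild type replicate 2 and 38 without double knockout replicate 2, and 3 in the IL4i1 knockout against wild type became 11 with array weights. The counts of 1 in the LAO1 knockout against wild type and against the IL4i1 knockout reached 4 without LAO1 knockout replicate 1. Signals within the background gauge limit 5 of the 10 genes, and Il33, Il5ra, Ccr3 and Siglecf, with means at its upper edge, are limited too; Ccl11 is the exception.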
